A study of Mus musculus with 28 samples.

Results

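The pyruvate dehydrogenase complex and the enzymes that switch it off and on were followed by RNA-seq in satellite cells, from which mouse skeletal muscle is regenerated. The 10 genes were taken by name from the 22552 genes of each deposited table, without regard to their values. They encode the catalytic E1 heterodimer (Pdha1 and Pdhb), the E2 acetyltransferase core (Dlat), the protein that anchors the E3 enzyme to that core (Pdhx), the 4 pyruvate dehydrogenase kinases (Pdk1, Pdk2, Pdk3 and Pdk4) and the catalytic subunits of the pyruvate dehydrogenase phosphatases (Pdp1 and Pdp2). The complex sits in the mitochondrial matrix and turns pyruvate into acetyl-CoA, which joins glycolysis to the citric acid cycle. The kinases phosphorylate the Pdha1 protein and stop the complex, and the phosphatases remove that phosphate. In muscle, Pdk4 is known to be induced in fasting and by fatty acids, a state in which glucose carbon is spared, while Pdk1 is known as a target of hypoxia-inducible factors.

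WT mice had a C57Bl/6 background. SIRT1mKO mice, called KO here, carried the Pax7cre/+ knock-in and floxed Sirt1 alleles, so that exon 4, which encodes part of the deacetylase domain, was lost in cells that express Pax7. Satellite cells were sorted by FACS and their polyadenylated RNA was sequenced in 3 states. They were freshly isolated (WT_FI, 5 libraries, and KO_FI, 3), proliferating in Hams F-10 with 20% FBS and 12.5 ng/mL bFGF (WT_Cul, 4, and KO_Cul, 2), or kept for 24 h in Hams F-10 with 2% horse serum to differentiate (WT_Diff, 2, and KO_Diff, 2). Neither the age of the mice nor their number per library is given in the labels, so the p-values measure the spread between libraries, which may be technical. The 3 comparisons of KO with WT cells, 1 in each state, and a comparison of proliferating with freshly isolated WT cells follow from the design.

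The 18 libraries came in 4 tables of fragments per gene, each table from its own run of the quantification. The table of freshly isolated cells held 3 WT_FI and 3 KO_FI libraries (28010691 to 65324684 fragments). The proliferating table held 2 WT_Cul and 2 KO_Cul libraries (75674366 to 82590642). The differentiating table held 2 WT_Diff and 2 KO_Diff libraries (71858446 to 82825550). The fourth table, here the table of WT states, held 2 further WT_FI and 2 further WT_Cul libraries (24254119 to 31643216). The proliferating state carries only the letter A in the tables and was matched to the labels by elimination, since the other states are accounted for and the numbers of libraries fit. Levels are given as CPM (fragments scaled to the depth of the library, as adjusted by the TMM method within a table) for 1 gene across libraries, and as deposited FPKM (per length as well) where genes are set beside each other. Libraries are named by the index that the tables give them, 0, 1 or 2. Fewer cells of a type and less RNA per cell cannot be told apart in such bulk samples.

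Several libraries stood apart from others with the same label. The 2 WT_FI libraries of the table of WT states had 117 to 138 CPM of Pax7, the defining satellite cell gene, against 832 to 1059 in the WT_FI libraries of the table of freshly isolated cells. Their summed CPM over 8 pericyte and smooth muscle markers was 22543 to 30908, against 3497 to 8453 in the other table's freshly isolated libraries. These CPM were scaled within each table, so they compare only roughly between tables. The differentiating libraries split by index. Acta1, skeletal muscle actin, was 46.0 CPM in WT_Diff and 105 in KO_Diff at index 0, and 5376 and 10331 at index 1, so that only the index 1 pair had this muscle gene at a high level. The libraries of index 0 in the table of freshly isolated cells and all 4 of the table of WT states held 7.23 to 8.18% of gene values that were not whole fragments, against 1.42 to 2.82% in the rest. The targeted gene cannot be checked from these totals, which do not show exon 4 alone. Sirt1 was 81.4, 50.6 and 47.4 CPM in WT_FI and 63.4, 37.6 and 44.3 in KO_FI, with overlapping groups. It was 62.2 and 66.8 CPM in WT_Cul and 33.8 and 46.9 in KO_Cul, without overlap, and 52.1 and 28.2 in WT_Diff and 41.4 and 28.8 in KO_Diff, with overlap.

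The promoters of 5 genes on which the comparison of the 2 WT states turns, chosen after their values were seen, are shown first, since the kinase and phosphatase genes that were low in proliferating cells and the 2 core genes that were high there can then be read side by side. Each line gives 250 bases before and 50 after the annotated start, 5′ to 3′, from RefSeq on GRCm38.p6, which is not the build of the deposited tables. RefSeq's promoter table matched 9 of the 10 genes, and Pdp1 is named only. Capitals mark matches on either strand. CACGTG is an E-box and reads alike on both strands. The CCAAT box is printed as such, or as ATTGG where it lies on the other strand. The GC box is GGGCGG here, with CCGCCC as its other strand. No match overlapped another.
Pdk2 promoter, chr11:95041322-95041621, minus strand: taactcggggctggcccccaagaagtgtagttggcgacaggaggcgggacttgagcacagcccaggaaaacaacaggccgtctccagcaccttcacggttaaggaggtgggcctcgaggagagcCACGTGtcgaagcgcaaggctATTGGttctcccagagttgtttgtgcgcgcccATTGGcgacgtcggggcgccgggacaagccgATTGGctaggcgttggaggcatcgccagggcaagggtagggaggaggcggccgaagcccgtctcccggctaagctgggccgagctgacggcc
Pdk4 promoter, chr6:5496229-5496528, minus strand: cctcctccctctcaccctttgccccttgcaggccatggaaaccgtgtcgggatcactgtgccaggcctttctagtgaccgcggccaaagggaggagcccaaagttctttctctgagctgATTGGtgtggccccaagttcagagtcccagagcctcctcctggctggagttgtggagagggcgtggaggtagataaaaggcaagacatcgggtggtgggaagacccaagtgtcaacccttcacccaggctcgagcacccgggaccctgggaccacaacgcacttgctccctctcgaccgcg
Pdp2 promoter, chr8:104591222-104591521, plus strand: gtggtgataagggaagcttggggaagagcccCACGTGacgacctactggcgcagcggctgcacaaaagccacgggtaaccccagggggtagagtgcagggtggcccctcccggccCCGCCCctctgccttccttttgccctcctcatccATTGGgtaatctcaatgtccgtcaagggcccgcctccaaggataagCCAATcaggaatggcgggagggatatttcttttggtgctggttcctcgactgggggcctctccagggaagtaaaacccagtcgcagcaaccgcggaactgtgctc
Dlat promoter, chr9:50659731-50660030, minus strand: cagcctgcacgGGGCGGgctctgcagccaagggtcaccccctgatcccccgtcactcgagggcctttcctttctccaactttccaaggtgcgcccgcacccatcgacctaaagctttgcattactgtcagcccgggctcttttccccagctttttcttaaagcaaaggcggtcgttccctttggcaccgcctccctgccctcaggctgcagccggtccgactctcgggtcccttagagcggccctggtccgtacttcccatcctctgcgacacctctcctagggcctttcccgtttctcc
Pdhx promoter, chr2:103073464-103073763, minus strand: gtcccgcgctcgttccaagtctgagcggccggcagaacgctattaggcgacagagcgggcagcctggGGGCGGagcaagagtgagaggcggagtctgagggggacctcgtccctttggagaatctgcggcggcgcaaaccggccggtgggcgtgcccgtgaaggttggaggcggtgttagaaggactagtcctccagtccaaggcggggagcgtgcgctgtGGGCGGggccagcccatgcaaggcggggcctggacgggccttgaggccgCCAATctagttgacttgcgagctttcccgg

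Pdk2 (the first of its 2 listed starts) and Pdp2 both held an E-box, at −126 and −219 relative to the start, and both held CCAAT boxes. Of all promoters of this length in the RefSeq table, 7.24% held the E-box, 37.9% a CCAAT box and 35.9% a GC box. The Pdk4 window held only a CCAAT box, at −131, and the Dlat window only a GC box, at −239. The Pdhx window held 2 GC boxes and a CCAAT box. A FOXO motif, TGTTTAC, is in 3.55% of all promoters and was in none of these 9 windows. The ERR receptor motif AAGGTCA is in 4.66% of all promoters and was likewise in none of the 9. These matches are descriptions of the letters and not binding sites.

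Pdk2 fell in proliferating WT cells. This kinase is the most widely expressed of the family in adult tissues. It was 49.97 and 49.87 CPM in the 2 WT_FI libraries of the table of WT states and 11.4 and 4.56 in the 2 WT_Cul libraries. The groups did not overlap, and the mean went from 49.9 ± 0.0735 to 7.96 ± 4.81 CPM (SD, n = 2 each). The log2 change was −2.65 (SE 0.55, 6.28-fold lower, adjusted p = 0.0262, edgeR quasi-likelihood test with Benjamini-Hochberg adjustment over all genes). The same test called 4200 of 14680 genes, 28.6%, with 12.6% higher and 16% lower in WT_Cul. Pdk2 was the only one of the 10 members called, a share below that background.

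Pdk4 had a lower level in WT_Cul that missed the threshold. It was 165 and 172 CPM in WT_FI and 65.3 and 88.1 in WT_Cul, without overlap, a log2 difference of −1.13 (SE 0.35, edgeR adjusted p = 0.0627). DESeq2 called it (adjusted p = 0.024), as did limma (adjusted p = 0.0497 on log2(FPKM + 1)). The phosphatase gene Pdp2 was 11.8 and 16.6 CPM against 2.48 and 7.56, a log2 difference of −1.49 (SE 0.66, edgeR adjusted p = 0.143). Both genes thus had lower means in the same libraries as Pdk2, without passing the edgeR test.

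The other regulators differed less. Pdk1 was 30.5 and 40.5 CPM in WT_FI and 35.9 and 20.8 in WT_Cul, with overlapping groups and a log2 difference of −0.33 (SE 0.43). Pdk3 was 18.2 and 21.9 against 25.7 and 23.5 CPM, a log2 difference of 0.29 (SE 0.36). Pdp1, the calcium-stimulated phosphatase, was 45.2 and 37.5 against 23.5 and 37.8 CPM, so its groups overlapped. Their edgeR adjusted p-values ran from 0.447 to 0.596.

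The core subunits had higher means in proliferating cells, and none passed the threshold. Dlat, the E2 core, was 74.1 and 89.3 CPM in WT_FI and 192 and 162 in WT_Cul, a log2 difference of 1.11 (SE 0.34, edgeR adjusted p = 0.0626). Pdhx, which binds the E3 enzyme, was 20.9 and 20.4 against 46.3 and 33.5 CPM, a log2 difference of 0.95 (SE 0.37, edgeR adjusted p = 0.107). Neither gene's groups overlapped. Pdhb, the E1 beta subunit, was 49.7 and 40.9 CPM against 124 and 53.4, so most of its log2 difference of 0.97 (SE 0.50) came from the WT_Cul library of index 0. Pdha1, the E1 alpha subunit that the kinases phosphorylate, was 254 and 299 against 308 and 301 CPM, a log2 difference of 0.14 (SE 0.35). In all, 8 of the 10 genes had groups that did not overlap, against 70.9% of the 14680 genes tested.

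**Figure D1:**
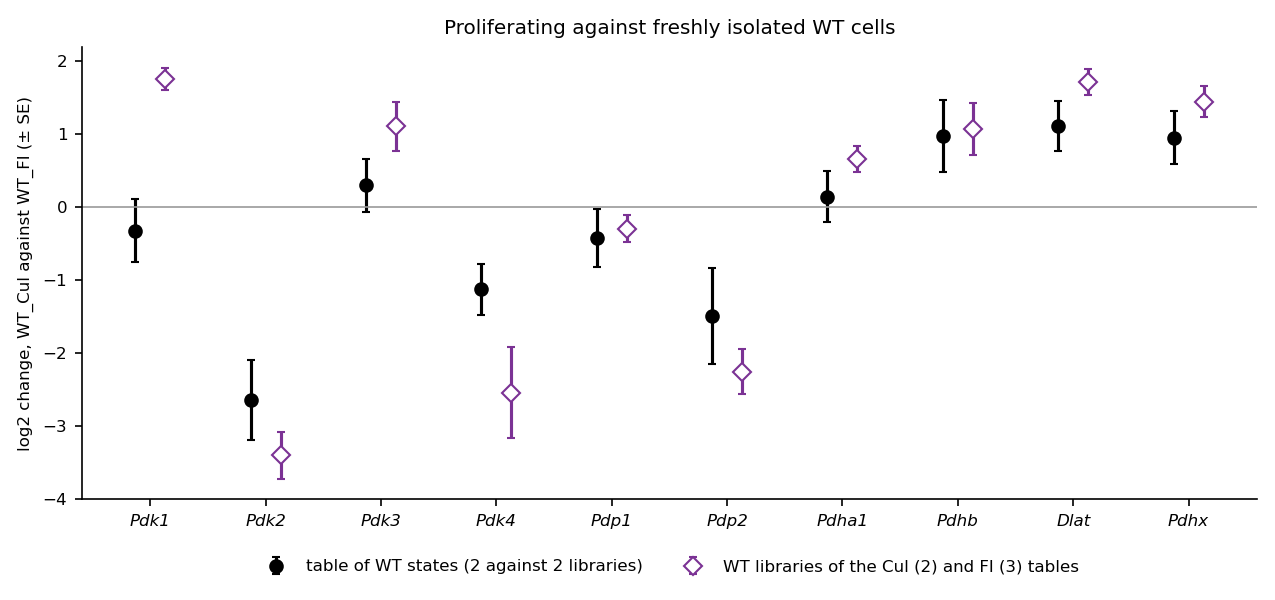
The log2 change of each gene (y axis, ± SE) in WT_Cul against WT_FI is shown for the table of WT states (filled circles) and for the WT libraries of the other tables (open diamonds). Pdk2, Pdk4 and Pdp2 lie below 0 and Dlat, Pdhx and Pdhb above it in both, while Pdk1 lies at −0.33 in one and 1.76 in the other.

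The size of the differences depended on single libraries. Leaving out 1 library at a time, Pdhb ran from 0.20 to 1.45 on the log2 scale. Dlat ran from 0.94 to 1.26 and Pdhx from 0.65 to 1.15. Pdk4 ran from −1.38 to −0.97 and Pdp2 from −2.53 to −0.95. The 2 WT_Cul libraries differed in Myog, which drives myoblast differentiation, at 807 CPM at index 0 and 9.05 at index 1. The 2 WT_FI libraries differed in the same direction, at 230 and 13.3 CPM. The part of Myog in these ranges was not tested. Over 11 alternative fits, Pdk2 passed in 11, between −3.49 and −2.15 on the log2 scale. Pdk4 passed in 6 of them, Dlat in 4, Pdp2 in 3, and Pdhb and Pdhx in 2 each.

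Markers of other cell types moved with this comparison. All 8 pericyte and smooth muscle markers were detected in each of the 4 libraries, and their summed level was 22543 to 30908 CPM in WT_FI and 2151 to 2191 in WT_Cul. The 10 fibroblast markers summed to 20455 to 29383 CPM against 1115 to 2319, and the 10 endothelial markers to 560 to 613 against 50.02 to 101.1. Of these lists, 6 of 8, 7 of 10 and 8 of 10 genes fell in the edgeR test and none rose. The 8 satellite cell markers summed to 2017 to 2264 CPM against 1571 to 2152, and 1 fell. Their part in the levels of Pdk2, Pdk4 and Pdp2 was not tested.

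The WT libraries of the other tables gave a further comparison of the same states, in which state and table cannot be told apart. edgeR called 9421 of 15672 genes there, 60.1%, with 27.6% higher and 32.6% lower in WT_Cul. Of the 10 members, 9 were called, and only Pdp1 was not (adjusted p = 0.203). Pdk2 was 10.6-fold lower in WT_Cul, at a log2 change of −3.41 (adjusted p = 0.000957). Pdk4 was 5.84-fold lower (log2 −2.55, adjusted p = 0.0161) and Pdp2 4.79-fold lower (log2 −2.26, adjusted p = 0.0025). These 3 regulators were thus low in all 4 WT_Cul libraries relative to the WT_FI libraries they were compared with. Cell type markers moved in this comparison too. All 8 pericyte and smooth muscle, all 10 fibroblast and all 10 endothelial markers fell in the edgeR test, as did 7 of 8 satellite cell markers. Their part in the levels of the members was not tested.

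The core subunits were all higher in WT_Cul in that comparison. Dlat changed by 1.71 on the log2 scale (adjusted p = 0.00127), Pdhx by 1.44 (0.00306), Pdhb by 1.07 (0.0423) and Pdha1 by 0.66 (0.0212), all from the edgeR test. Pdk1 rose by 1.76 (adjusted p = 0.000831) and Pdk3 by 1.10 (adjusted p = 0.0325). With all 18 libraries scaled together, Pdk1 was 73.3 and 82.2 CPM in the WT_Cul libraries of the proliferating table. The WT_Cul libraries of the table of WT states had 35.4 and 19.9 CPM of Pdk1 on that scale. Its direction depended on the table, and the cause was not tested.

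**Figure D2:**
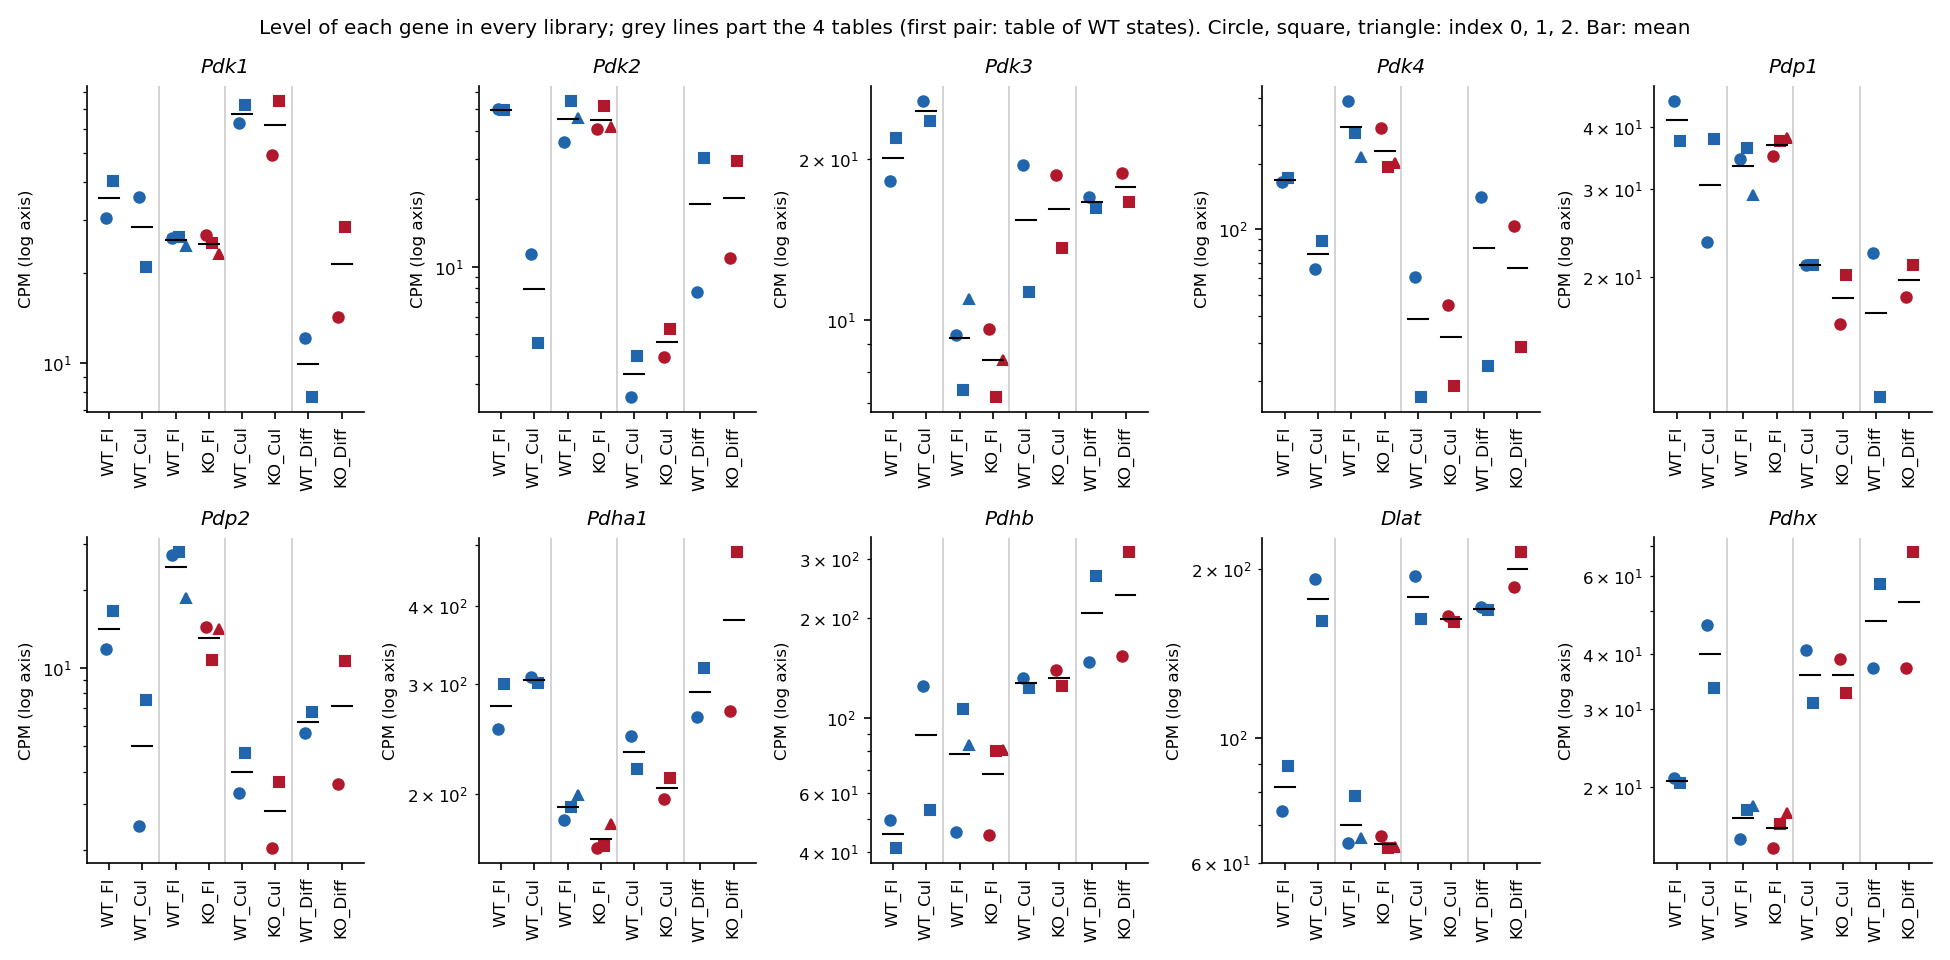
Each panel gives 1 gene's CPM (y axis, log scale) in every one of the 18 libraries, by group (x axis) and with the table marked. Libraries are scaled within their table, so heights compare strictly only within a table. By group mean, here and with all 18 libraries scaled together, Pdk2 and Pdk4 are highest in the freshly isolated groups. Dlat and Pdhx are lowest there.

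The order of the 6 groups was read from CPM scaled over all 18 libraries together, as a description. Pdk2 was highest in WT_FI (43.3 ± 6.84, SD, n = 5) and KO_FI (40.3 ± 5.43, n = 3), which overlapped. KO_Diff (22.3 ± 14.2, n = 2) and WT_Diff (20.4 ± 16.6, n = 2) came next, below every KO_FI library, and WT_Cul (5.81 ± 3.66, n = 4) and KO_Cul (5.41 ± 0.845, n = 2) were lowest. The ranges of WT_Diff and WT_Cul overlapped, through the index 0 library of WT_Diff.

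Pdk4 followed the same order at its top. It was 222 ± 80.8 in WT_FI and 206 ± 49.2 in KO_FI. The highest library of the other 4 groups, 157 in WT_Diff, lay below every KO_FI library and just above the lowest WT_FI library, at 155. Below them, WT_Diff (91.0 ± 93.8), KO_Diff (73.9 ± 60.0), WT_Cul (59.6 ± 28.1) and KO_Cul (38.2 ± 23.3) each overlapped the next. Dlat was reversed, with KO_Diff (221 ± 18.8), KO_Cul (192 ± 12.4), WT_Cul (189 ± 29.5) and WT_Diff (185 ± 9.26) all above WT_FI (68.8 ± 10.8) and KO_FI (58.5 ± 1.498). Pdk1 was highest in KO_Cul (72.5 ± 17.7) and lowest in WT_Diff (10.9 ± 3.86), and of the neighbours in that order only KO_FI and WT_Diff did not overlap.

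Dlat and Pdhx, whose proteins together build the core of the complex, kept close to each other across the 18 libraries. Their Pearson correlation over log2 CPM was 0.96, and the ratio of their FPKM stayed between 1.78 and 3.19. Pdk4 correlated with Pdhx at −0.80 and with Dlat at −0.78. Such values were not particular to Pdk4, as Pdp1 with Pdhb gave −0.82 and Pdp2 with Dlat −0.78. The libraries share tables and states, so these values describe the set and carry no test.

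The 4 kinases were then compared with each other per length. Pdk4 gave most of the kinase FPKM in freshly isolated cells. In the WT_FI libraries of the table of freshly isolated cells it was 82.6 ± 25.6 FPKM (SD, n = 3), against 20.1 ± 3.99 for Pdk2, 4.75 ± 0.184 for Pdk1 and 4.70 ± 0.915 for Pdk3. Its share of the kinase sum was 72.6 ± 7.58%. The WT_FI libraries of the table of WT states gave Pdk4 a share of 54.9 ± 0.971% (n = 2).

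In proliferating cells the mixture of kinases was different. Within the table of WT states, the share of Pdk2 was 25.7 ± 1.21% in WT_FI and 8.22 ± 4.91% in WT_Cul, and that of Pdk3 was 11.8 ± 0.998% and 29.2 ± 1.58% (SD, n = 2 each). The groups did not overlap for either, and the exact permutation p of 0.33 (two-sided) is the smallest that 2 against 2 libraries can give. The share of Pdk4 was 50.4 ± 10.99% in WT_Cul, with overlapping groups. The summed kinase FPKM went from 87.4 ± 4.51 to 42.4 ± 0.898, and its ratio to the FPKM of the substrate gene Pdha1 from 0.875 ± 0.0616 to 0.394 ± 0.00300. The ratio of the kinase sum to the summed FPKM of Pdp1 and Pdp2 overlapped between the groups. It was 6.08 and 6.70 in WT_FI and 7.03 and 3.93 in WT_Cul.

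The proliferating table gave another mixture. Pdk1 held 29.3 and 52.2% of the kinase FPKM in its 2 WT_Cul libraries and 27.6 and 48.6% in its 2 KO_Cul libraries. Pdk4 was the largest at index 0 (42.8% in WT_Cul and 38.3% in KO_Cul) and Pdk1 at index 1. Which kinase led in proliferating cells therefore depended on the library, in both genotypes alike.

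**Figure D3:**
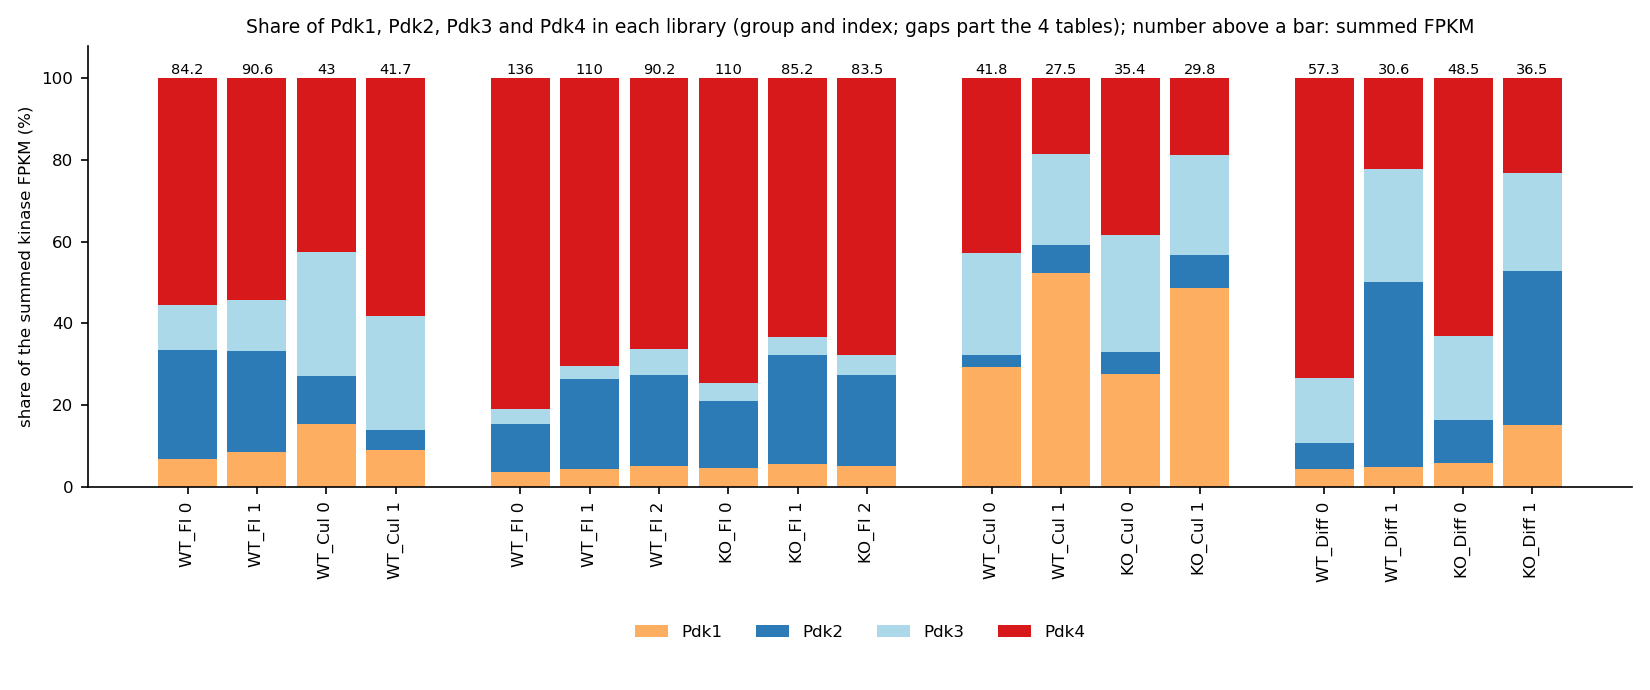
Stacked bars give the percent of the summed kinase FPKM (y axis) held by Pdk1, Pdk2, Pdk3 and Pdk4 in each of the 18 libraries (x axis). Pdk4 holds 54.2 to 81.1% in every freshly isolated library, and 18.6 to 58.1% in the proliferating ones.

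No member passed the edgeR test in KO_FI against WT_FI, the comparison of genotypes in freshly isolated cells. Of 15146 genes tested, 0% were called at an adjusted p of 0.05, while 621 had an unadjusted p under 0.05. DESeq2 called 117 genes and limma on log2(FPKM + 1) called 0. Estimates were below 0 for 9 of the 10 members, with a median of −0.12 on the log2 scale, beside −0.03 for all genes, of which 8375 were below 0.

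Pdp2 had the largest difference of the 10 in freshly isolated cells. It was 27.3, 27.9 and 18.5 CPM in WT_FI and 14.4, 10.8 and 14.2 in KO_FI, so that every KO library lay below every WT library. Its mean was 24.6 ± 5.24 CPM in WT_FI and 13.1 ± 2.03 CPM in KO_FI (SD, n = 3 each). The log2 difference was −0.91 (SE 0.21, edgeR unadjusted p = 0.00492, adjusted p = 0.737). DESeq2 called it, at −0.92 and an adjusted p of 0.0308, the only 1 of 13 alternative fits in which it passed. A fit with the index as a block gave −0.90 (SE 0.21, edgeR adjusted p = 0.438). Within the 3 indices, the KO library differed from the WT library by −0.93, −1.37 and −0.39 on the log2 scale. That the index pairs libraries was read from correlations, which told indices 1 and 2 apart poorly.

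Pdk4 in freshly isolated cells was 388, 278 and 214 CPM in WT_FI and 293, 193 and 202 in KO_FI, with overlapping groups and a log2 difference of −0.36 (SE 0.27). Without the WT_FI library of index 0 it was −0.093, and without the KO_FI library of index 0 it was −0.57. Each of these 2 settings leaves index 0 with a library of 1 genotype only. Within the indices, the KO library differed from the WT library in Pdk4 by −0.41, −0.53 and −0.08. A fit with the index as a block gave −0.34 (SE 0.13, edgeR adjusted p = 0.607). Pdha1 was 182, 191 and 199 CPM against 164, 165 and 179, without overlap, though the difference was only −0.17 (SE 0.10). Of the 10 members, the groups did not overlap for Pdp2 and Pdha1, 2 genes, against 9.22% of all genes tested. Pdk1 (−0.04), Pdk2 (−0.02), Pdhx (−0.08), Dlat (−0.11), Pdk3 (−0.14), Pdp1 (0.14) and Pdhb (−0.20) had log2 estimates nearer 0 with overlapping groups. The share of Pdk4 in the kinase FPKM was 72.6 ± 7.58% in WT_FI and 68.6 ± 5.65% in KO_FI (exact permutation p = 0.6, two-sided, where 0.1 is the smallest possible).

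Pdhb in these libraries followed the index more than the genotype. It was 45.8 CPM in WT_FI and 44.9 in KO_FI at index 0, and 79.7 to 106 in the other 4 libraries. The index 0 pair is the one with more values that are not whole fragments. Pdhb has the shortest transcript of the 10, near the 20.0th percentile of length among all genes, and what set its level in the index 0 pair was not tested.

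**Figure D4:**
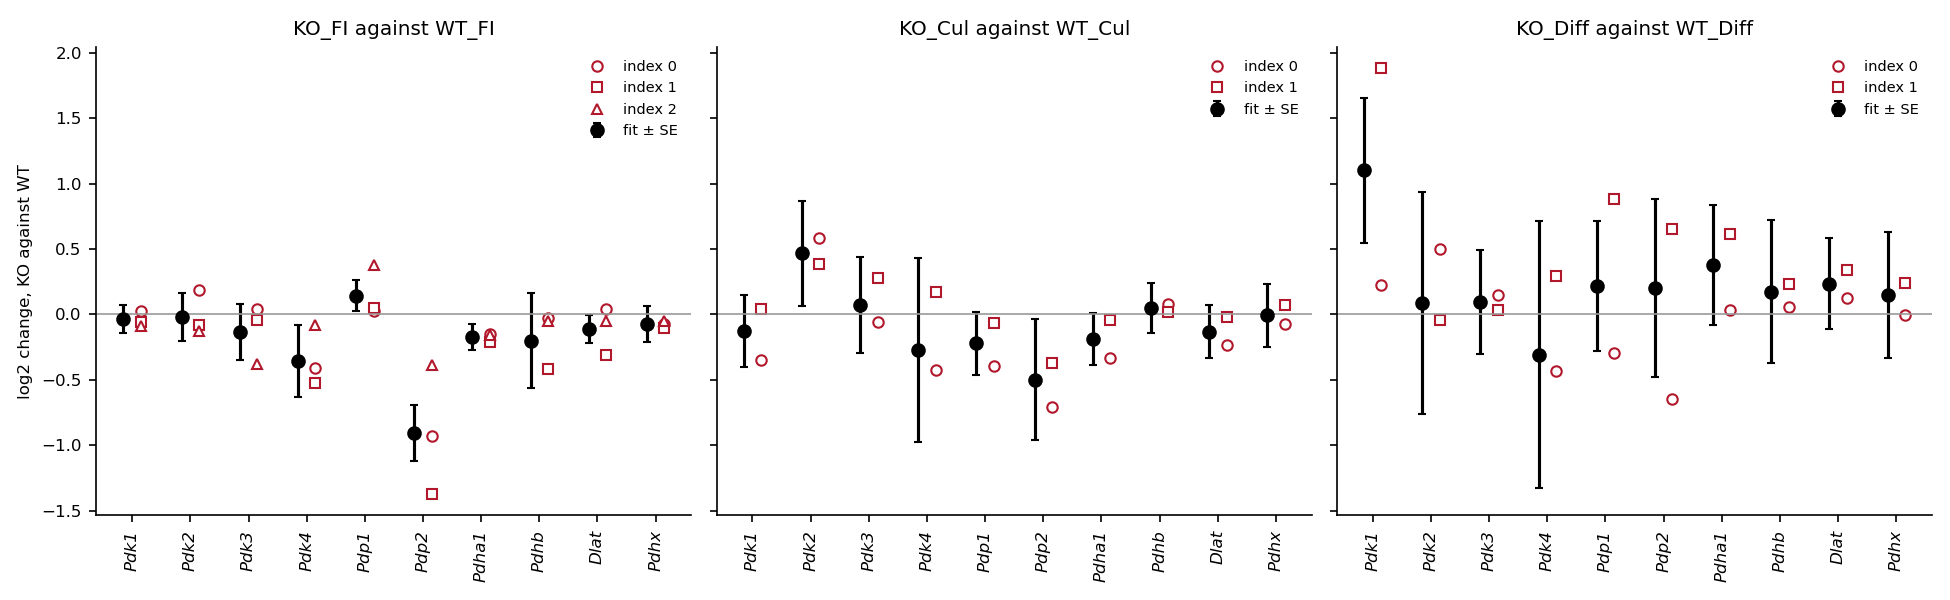
The log2 difference of KO against WT (y axis) is shown for each gene in each state. Filled circles give the fitted value ± SE, and open symbols the difference between libraries of the same index. A pairing by index was read from correlations only in freshly isolated cells. Pdp2 lies below 0 at all 3 indices there, from −1.37 to −0.39.

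In proliferating cells edgeR called 0% of 13963 genes in KO_Cul against WT_Cul, with 112 at an unadjusted p under 0.05, 3 called by DESeq2 and 0 by limma. Pdk2 was 2.64 and 4.03 CPM in WT_Cul and 3.95 and 5.27 in KO_Cul, a log2 difference of 0.47 (SE 0.40) between overlapping groups. Pdp2 was 3.31 and 4.70 against 2.03 and 3.63 CPM, a log2 difference of −0.50 (SE 0.46) that lay between −0.98 and −0.16 when either KO library was left out. The groups did not overlap for Pdha1 (248 and 219 against 197 and 213 CPM) and Pdp1 (21.1 in both WT libraries against 16.1 and 20.2 CPM). That is 2 of the 10 members, against 23% of all genes tested. The other 6 members lay between −0.27 and 0.07 on the log2 scale.

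In differentiating cells edgeR called 0% of 14482 genes in KO_Diff against WT_Diff, with 27 at an unadjusted p under 0.05, and DESeq2 and limma called 0. Pdk1 was 12.1 and 7.73 CPM in WT_Diff and 14.2 and 28.5 in KO_Diff, without overlap, at a log2 difference of 1.10 (SE 0.55, edgeR adjusted p = 1.00). Without the KO_Diff library of index 1 the difference was 0.54. Dlat also had no overlap, at 171 and 169 CPM in WT_Diff and 186 and 214 in KO_Diff. These were 2 of the 10 members, against 13.2% of all genes tested. The remaining 8 had log2 estimates from −0.31 (Pdk4, SE 1.02) to 0.38 (Pdha1).

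A fit over the 14 libraries of the 3 genotype tables, with the state as a term, gave an average KO difference. It called 1 of 16698 genes, 0.00599%, and no member, with 366 genes at an unadjusted p under 0.05. Pdp2 had the largest average difference of the 10 at −0.46 (SE 0.26, edgeR unadjusted p = 0.104), followed by Pdk4 at −0.30 (SE 0.42) and Pdk1 at 0.27 (SE 0.22). The test of whether the KO difference varied between states called 0% of the same genes (edgeR, with 180 at an unadjusted p under 0.05, and 0 by DESeq2). Pdk1 had an unadjusted p of 0.0373 there (adjusted p = 1.00) and Pdp2 0.218.

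Within the differentiating table, Pdk4 and Pdk2 differed more between the 2 indices than between the genotypes, and in opposite directions. Dlat, Pdk1 and Pdp1 did not follow the index in this way. Pdk4 was 140 CPM at index 0 and 23.4 at index 1 in WT_Diff, and 104 and 28.7 in KO_Diff, which is 5.99-fold and 3.62-fold lower at index 1. Pdk2 was 7.72 and 30.4 CPM in WT_Diff and 10.9 and 29.5 in KO_Diff, 3.94-fold and 2.70-fold higher at index 1. The kinase with the largest share was Pdk4 at index 0 (73.4% in WT_Diff and 63.1% in KO_Diff) and Pdk2 at index 1 (45.3% and 37.6%).

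The E1 genes and Pdhx were also higher at index 1 in both genotypes. Pdhb was 147 CPM at index 0 and 266 at index 1 in WT_Diff, and 154 and 313 in KO_Diff. Pdhx was 37.2 and 57.5 CPM in WT_Diff and 37.0 and 67.8 in KO_Diff. Dlat was almost level, at 171 and 169 CPM in WT_Diff and 186 and 214 in KO_Diff.

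Muscle genes moved with the same index. The summed CPM of 15 differentiated muscle genes was 1636 in WT_Diff and 2221 in KO_Diff at index 0, and 18244 and 38882 at index 1. Myh3, the embryonic myosin heavy chain, was 0.945 and 4.72 CPM at index 0 and 612 and 3933 at index 1. Gene length moved as well, with a median log2 difference between the indices of WT_Diff of 0.44 in the shortest 10% of genes and −0.79 in the longest 10%, and 0.20 and −0.14 in KO_Diff. Xist was 1234 CPM in WT_Diff and 786 in KO_Diff at index 0, and 0.323 and 0.144 at index 1. The members Pdha1 and Pdk3 lie on the X chromosome. With 1 library per index and genotype, these differences between the indices are single ones with no replicate. The part of the muscle genes, of gene length or of Xist status in them was not tested.

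The proliferating table showed the same direction for Pdk4. It was 60.3 CPM at index 0 and 17.0 at index 1 in WT_Cul, and 44.9 and 19.1 in KO_Cul. In WT_Cul and KO_Cul, Myog was 10.2 and 12.1 CPM at index 0 and 0.377 and 0.693 at index 1, and the summed CPM of the 15 differentiated muscle genes was 527 and 756 at index 0 and 804 and 977 at index 1. At index 1, where Pdk4 was lower, Myog was lower and the muscle sum higher here, and both were higher in the differentiating table. In WT_Cul and KO_Cul, Xist was 1.06 and 0.359 CPM at index 0 and 2287 and 1217 at index 1, while the differentiating table had its high values at index 0. These are again single libraries, and the part of Myog, the muscle genes or Xist status in the level of Pdk4 was not tested.

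**Figure D5:**
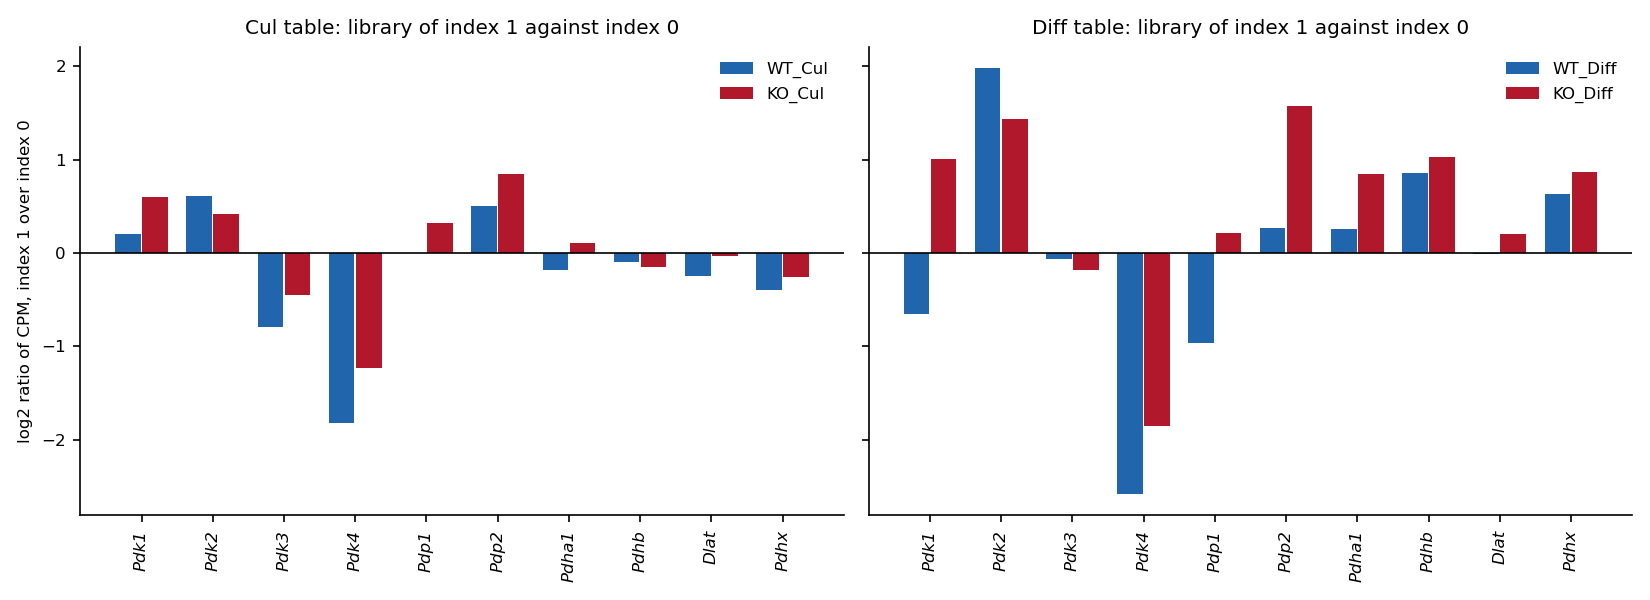
Bars give the log2 ratio of CPM of the index 1 library over the index 0 library (y axis) for each gene, in WT (blue) and KO (red) cells of the proliferating and differentiating tables. Pdk4 is negative in all 4 pairs, from −2.58 to −1.23, and Pdk2 positive in all 4, from 0.42 to 1.98.

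Other genes of pyruvate use were described from lists drawn up around the complex, in the comparison of WT_Cul with WT_FI of the table of WT states (edgeR, as above). Of all genes tested, 12.6% rose and 16% fell, and the median log2 change was 0.06. A list's count is to be read against those shares. Of 10 genes that make pyruvate or use it otherwise, 6 rose and 1 fell, with a median of 1.58. Ldha, the lactate dehydrogenase subunit that favours lactate, was 172 and 118 CPM in WT_FI and 1775 and 756 in WT_Cul (log2 3.12, SE 0.59, adjusted p = 0.0214). Ldhb, its counterpart in oxidative tissue, was 49.3 and 52.0 against 14.7 and 12.5 CPM (log2 −1.90, SE 0.35, adjusted p = 0.0199). Pkm2, pyruvate kinase under its older symbol, changed by 2.50 and Me2, the mitochondrial malic enzyme, by 2.38.

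Partners of the complex and its cofactors gave 1 rise and no fall among 10 genes (median 0.25). The riser was Lipt2, which transfers the octanoyl group from which lipoate is made, at 1.79 and 2.03 CPM in WT_FI and 15.9 and 6.99 in WT_Cul (log2 2.58, adjusted p = 0.0336). Of 9 genes of the related dehydrogenases of oxoglutarate and branched-chain ketoacids, only Ppm1k, the phosphatase of the branched-chain complex, changed, by −2.39 (adjusted p = 0.0252). Of 10 genes that handle acetyl-CoA and citrate, 3 fell and none rose. They were Acss1 (−4.73) and Acss2 (−2.09), which make acetyl-CoA from acetate, and Acacb (−3.80), whose malonyl-CoA restrains fatty acid import into mitochondria.

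Of 13 transcription factors and coactivators known to act on kinase genes, 3 fell and none rose (median −0.97). Ppara, a fatty acid receptor, was 7.37 and 8.33 CPM in WT_FI and 1.16 and 1.93 in WT_Cul (log2 −2.34, adjusted p = 0.0324). Epas1, which encodes a hypoxia-inducible factor and is abundant in endothelial cells, changed by −4.90, and Esrrg, an estrogen-related receptor, by −2.68. Of 10 tested genes that are induced with Pdk4 in fasting or by PPAR ligands, 3 fell and 1 rose (median −0.18). Cpt1b, which loads fatty acids for mitochondrial import, changed by −2.45, Lpl, lipoprotein lipase, by −2.18 and Plin2, a lipid droplet coat protein, by 2.13. The WT libraries of the other tables gave calls in the same direction for these named genes except Cpt1b (0.21, adjusted p = 0.612), Ldhb (−1.33, adjusted p = 0.0529) and Esrrg (−1.63, adjusted p = 0.15).

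No gene at all, of these 6 lists or elsewhere, passed the edgeR test in any of the 3 comparisons of KO with WT cells. The absence of list genes there is therefore no result about these lists.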

How the data were processed

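RNA-seq of 18 libraries of sorted mouse satellite cells was read from 4 deposited tables. The mm9 build and the tools Cuffdiff, TopHat, Bowtie and SICER appear, without versions, in the submitters' processing notes. Per the file headers, the deposited values are estimated counts of raw fragments and FPKM per gene and replicate. The ChIP samples of the series were not analysed here. Estimated counts were rounded to whole numbers. Genes were kept by filterByExpr, scaled by TMM and tested with edgeR 4.0.16 (quasi-likelihood, robust) under R 4.3.3, and p-values were adjusted after Benjamini and Hochberg over the whole table, with calls at 0.05. Alternatives were DESeq2 1.42.0, limma 3.58.1 on log2(FPKM + 1) or log2(FPKM + 0.1), RLE scaling, no filter, a replicate block and leaving out libraries. The fits were tested on simulated data. Genes whose Cuffdiff status was not usable (12 to 27 per table) were left out. Each table's replicate index, 0 to 2, is not the replicate number of the labels. In the table of freshly isolated cells, KO and WT libraries of the same index deviated together (correlations of 0.842, 0.626 and 0.544 for the 3 indices). Between indices 1 and 2 the correlations were 0.489 and 0.334, so only index 0 stood clearly apart. A pairing by index was read from these values. It is not settled for indices 1 and 2 and not stated in the labels. No 2 libraries of the same group and table agreed within sampling noise (chi-square of at least 26.7 per degree of freedom). Other pairs of libraries were not compared in this way. A value counted as whole within 0.01. Depth ran from 24254119 to 82825550 fragments per library. The genes and lists were chosen with earlier results of these data known. Named genes of a list are up to 4 with the smallest p among those that passed in WT_Cul against WT_FI, and Sirt1 and all 10 members are named throughout. A gene that this rule names is not reported here.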

Additional observations from a re-analysis of the deposited data

Results flagged for a closer look

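Pdp1 had 1 library far from the others of its group. In the 4 WT_Cul libraries, scaled together with all 18, the WT_Cul library of index 1 of the table of WT states had 36.2 CPM, and its distance to the nearest other library was 0.883 of the whole range of the group. Such a gap marked 1 of the 20 groups of 4 or 5 libraries that were looked at, and chance alone marks about 1 in 20.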

How the results depend on the processing

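Counts of called genes and estimates of the 10 members moved with the fit as follows, and the cause was not tested. In KO_FI against WT_FI, edgeR called 0 genes, DESeq2 117, of which 1 was a member (Pdp2), and 1 gene was called without both libraries of index 0. KO_Cul against WT_Cul gave 3 genes with DESeq2 and 3 with a replicate block, and KO_Diff against WT_Diff 147 with a replicate block, no member among them. The average KO effect gave 27 genes with a replicate block, 29 with DESeq2, 0 to 2 leaving out 1 library, 0 without both freshly isolated libraries of index 0 and 7 without both differentiating libraries of index 1. The latter 2 settings and that without both libraries of index 0 were chosen after seeing the data. Only 2 pairs share an index in the proliferating and differentiating tables and the table of WT states (correlations 0.628, 0.746 and 0.269). They are too few to settle a pairing by correlation. In the proliferating and differentiating tables, KO and WT libraries of the same index were alike in Xist, which differed widely between the indices.

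WT_Cul against WT_FI gave 4200 genes, 2063 to 8050 leaving out 1 library and 9421 with the WT libraries of the other tables. Of the members, 1 was called, against 3 with DESeq2 (5763 of all 14680 genes), 2 with limma at either pseudocount (4238 and 4503 genes), 4 with a replicate block (Dlat higher, and Pdk2, Pdk4 and Pdp2 lower, beside 6176 genes), 1 to 6 leaving out 1 library and 9 with the other tables, where Pdk1 turned from −0.33 to 1.76. Estimates within 0.05 of 0 were taken as having no direction. Leaving out 1 library turned the sign of these log2 differences: in KO_FI, Pdhb (−0.47 to 0.076); in KO_Cul, Pdk1 (−0.46 to 0.12), Pdk3 (−0.27 to 0.51) and Pdk4 (−1.03 to 0.91); and in KO_Diff, Pdha1 (−0.072 to 0.74), Pdhb (−0.39 to 0.66), Pdhx (−0.32 to 0.52), Pdk2 (−0.75 to 1.39), Pdk4 (−1.52 to 1.51), Pdp1 (−0.19 to 0.79) and Pdp2 (−0.76 to 0.78). The Pdk4 share moved from −7.13 to 0.198 percentage points in KO_FI, −14.2 to 9.98 in KO_Cul, −30.3 to 21.0 in KO_Diff and −12.3 to 3.25 between the WT states. Where an arm kept 1 library, it was assumed to vary like the other group. limma was not run on the joined tables.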

Other observations

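The 5 genes whose log2 CPM followed Pdk4 most closely over the 18 libraries were Cyp39a1, an oxysterol hydroxylase (Pearson r 0.93), Nebl, which encodes nebulette (0.91), St5 (0.91), Gda, guanine deaminase (0.91), and Rnd3 (0.91). Cyp39a1 was 42.0 CPM in WT_FI and 44.2 in KO_FI, scaled over all libraries, against 5.60 (WT_Cul), 3.54 (KO_Cul), 9.34 (WT_Diff) and 11.8 (KO_Diff) elsewhere. Rnd3 was 183 CPM in WT_FI and 139 in KO_FI, and 38.6 to 54.6 in the other 4 groups. The libraries share tables and states, so the correlations are descriptions.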
